A study of Mus musculus with 9 samples.

Results

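The 9 genes described here are transcription regulators of the skeletal muscle lineage: the myogenic regulatory factors Myod1, Myf5, Myf6 and Myog, the paired box factors Pax3 and Pax7, the homeobox factor Six4, and Eya1 and Eya4, partners of the Six-family proteins. They were taken by name from the table that compares sham quadriceps with sham heart, and are 9 of its 24537 gene names and 13 of its 35745 transcript rows. Eya1 has 3 rows, Eya4 and Pax3 have 2 each, and the other 6 genes have 1 row each. Rows of the same gene share most of their reads and are not separate measurements.

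The study sequenced RNA of C57Bl6 mice (C57Bl/6J in the study's text), operated on at 8 weeks of age and sampled 12 weeks later. Of the 9 libraries in the series, 6 were used: 3 of sham heart and 3 of sham quadriceps, from mice that had a sham operation, for which the labels name no other agent or allele. The other 3 libraries are quadriceps after TAC, a narrowing of the aorta that overloads the heart, and their table lists 587 genes for secreted proteins, of which 0 are among the 9, so that the response to TAC was not analysed here. The comparison asks how far the expression of each gene differs between a limb muscle and the heart. The study calls its replicates biological, while the labels tie no library to an animal, and the p-values measure the spread between these samples. Both tissues were sequenced whole, and fewer cells of a type cannot be told apart from less RNA per cell.

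As background, the myogenic regulatory factors are basic helix-loop-helix proteins that pair with E proteins and bind E-box sequences of muscle genes. Myod1 and Myf5 set the identity of myoblasts, Myog drives their differentiation, and Myf6, also called Mrf4, is known as the family member of mature fibres. Pax3 and Pax7 act before them, in embryonic muscle progenitors and in satellite cells, the stem cells of adult muscle. Six-family proteins bind MEF3 sequences and gain activity through Eya proteins, and together they act upstream of the myogenic factors and on genes of fast fibres. Heart muscle forms through other factors, such as Gata4, Nkx2-5 and Tbx5.

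The proximal promoters of Myog and Six4 are shown because Myog lies downstream of the other factors and because both windows hold the Six-binding sequence MEF3. Each line gives the 250 bases before the RefSeq start, 5' to 3' on the strand of the gene, from the RefSeq promoter table of build GRCm38.p6, and capitals mark E-box and MEF3 matches. Myog is chr1:134289754-134290003 on the plus strand and Six4 is chr12:73113246-73113495 on the minus strand.

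Myog: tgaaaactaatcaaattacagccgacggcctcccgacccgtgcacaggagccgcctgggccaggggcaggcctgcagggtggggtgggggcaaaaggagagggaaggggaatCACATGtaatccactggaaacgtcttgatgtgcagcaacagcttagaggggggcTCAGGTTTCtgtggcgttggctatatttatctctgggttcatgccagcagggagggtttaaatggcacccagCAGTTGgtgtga
Six4: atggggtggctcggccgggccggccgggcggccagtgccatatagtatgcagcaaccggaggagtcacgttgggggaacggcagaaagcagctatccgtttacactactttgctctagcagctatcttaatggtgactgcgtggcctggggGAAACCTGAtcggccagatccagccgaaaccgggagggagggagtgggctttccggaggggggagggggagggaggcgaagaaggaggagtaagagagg

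The Myog window held 1 MEF3 match, TCAGGTTTC, which began 84 bases before the start, and 2 E-boxes. The first of these, CACATG, began 138 bases before the start, and the second was CAGTTG at 12 bases. The Six4 window held the reverse complement of MEF3, GAAACCTGA, which began 99 bases before the start, and 0 E-boxes. Windows were searched on both strands, and an E-box was any CANNTG. MEF3 was found in 0.387% of all 32851 RefSeq windows of this length and the E-box in 66.2%. Both windows are shown partly because they hold MEF3, so its rate is given for scale and is no test of them. The MEF2 consensus, found in 2.92%, matched neither window. The table held 7 windows for 5 of the 9 genes. The second Six4 window and the windows of Myf5 and Pax7 held none of these letters, and 1 of the 2 Eya4 windows held the E-box CACTTG. A match describes letters and shows no binding. The absence of one says only that the letters searched for are not in the window, and sequences that differ from them were not counted.

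By GENCODE vM21 on GRCm38, Myf6 (chr10:107492853-107494737, minus strand) and Myf5 (chr10:107482908-107486134, minus strand) are neighbours with 6718 bases between them. Myod1 is at chr7:46376474-46379099 and Myog at chr1:134289989-134292548, both on the plus strand. The other 5 genes are on the minus strand: Pax3 at chr1:78101267-78197134, Pax7 at chr4:139737062-139833528, Six4 at chr12:73099609-73113456, Eya1 at chr1:14168954-14310235 and Eya4 at chr10:23102963-23350786. Eya1 overlaps the genes Gm22616 and Gm37444, and Eya4 overlaps Gm24655, in each case outside shared exons. How the counting used strand is not given in the sources used here.

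The libraries held 33102826 to 38382751 counts in heart and 23383452 to 32989108 in quadriceps. The tissue labels held for the defining markers. The 5 fast fibre genes Myh4, Myh1, Myh2, Actn3 and Mylpf, tested with edgeR, were all higher in quadriceps (log2 fold changes 16.22 for Actn3, 15.23 for Mylpf and 15.16 for Myh4), and summed to 34642 to 57385 counts-per-million (CPM) there against 1.84 to 2.52 in heart. The 6 cardiomyocyte genes, led by Tnni3 (-13.01), Myh6 (-12.53) and Tnnt2 (-10.39), were all lower, with sums of 11.7 to 15.4 CPM in quadriceps and 26968 to 29610 in heart. The heart libraries stood apart from each other on the atrial genes of this list, with 2075, 164 and 3 counts of Myl7 and 6811, 756 and 91 of Myl4, which overlapped the quadriceps libraries in CPM. The TMM scaling used throughout gives quadriceps libraries smaller effective sizes than heart libraries, and scaling by library totals instead lowered the median log2 fold change of all rows by 0.75. The split of all called rows then went from 7828 higher and 8354 lower to 3240 higher and 15203 lower.

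All 9 genes had a higher level in quadriceps than in heart, with no overlap between the 3 libraries of each tissue. At an adjusted p below 0.05 in edgeR's quasi-likelihood test, 13 of the 13 member rows were higher and 0 were lower, against 32.2% of all 24280 tested rows called higher. All 9 genes were called higher, against 32.1% of the 14906 genes tested with 1 row each, and 33.9% of those genes were called lower. The non-overlap of the 3 quadriceps libraries above the 3 heart libraries was seen for 33.9% of all tested genes. The study's own criterion, a log2 fold change over 2 and an unadjusted p below 0.05, was met by all 13 rows and by 7.00% of all tested rows. For Myod1, Myf5, Myf6, Myog, Pax7 and Pax3, with at most 2 counts in every heart library, passing the count filter rested on the quadriceps alone, so that these counts are a description of the 9 genes and no support for them as a group. The median log2 fold change was 7.17 over the 9 genes, or 5.96 with the 3 genes at 0 in heart set at their lower bound, and -0.053 over all tested genes.

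**Figure D1:**
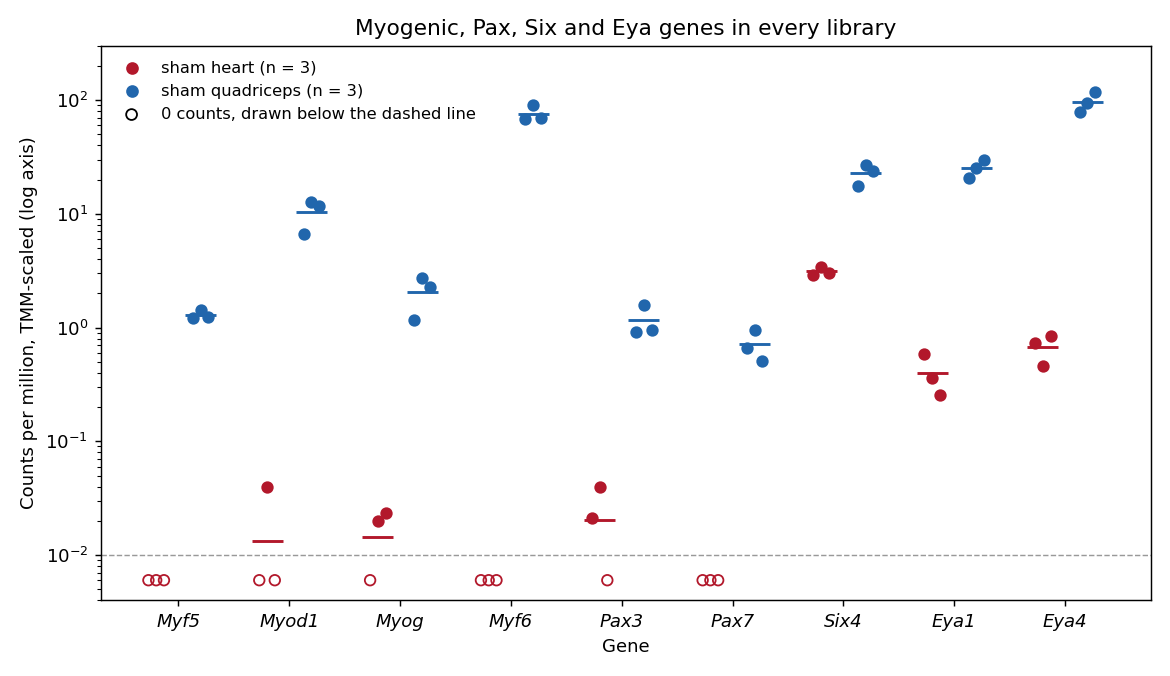
CPM (TMM-scaled, log axis) of each gene in the 3 sham heart (red) and 3 sham quadriceps (blue) libraries, with horizontal lines at the group means and open circles for libraries with 0 counts. Every gene is higher in all quadriceps libraries than in any heart library, and Six4, with 3.12 CPM in heart, has the highest heart level.

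Myf6 was the most abundant of the myogenic regulatory factors. It had 1861, 2157 and 1234 counts in the 3 quadriceps libraries, which are 68.4, 90.2 and 69.7 CPM (76.1 ± 12.2, SD, n = 3). No read of Myf6 was counted in any of the 3 heart libraries. Set against 3 counts over the whole heart group, the quadriceps level was at least 3584-fold higher (adjusted p = 4.29e-08).

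Myod1, the determination factor of myoblasts, was next in level. Its counts were 180, 305 and 209 in quadriceps, or 6.62, 12.7 and 11.8 CPM (10.4 ± 3.30, n = 3), and 0, 2 and 0 in heart. The first quadriceps library was the low one, and even so stood far above all heart libraries. Pooled over libraries, the ratio of quadriceps to heart was 710, with an exact 95% interval of 196 to 5878 that covers counting error only (adjusted p = 4.77e-07).

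Myog, the differentiation factor, was low in quadriceps and nearly absent from the heart counts. It had 32, 65 and 40 counts in quadriceps, which are 1.18, 2.72 and 2.26 CPM (2.05 ± 0.791, n = 3), and 0, 1 and 1 counts in heart. The pooled ratio was 140.2 (interval 38.1 to 1170, adjusted p = 7.90e-06). The coefficient of variation of Myog among quadriceps libraries was 38.6%, where counting alone would give 14.8%.

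Myf5, the other determination factor, had 33, 34 and 22 counts in quadriceps and 0 in every heart library. The quadriceps libraries lay close together at 1.21, 1.42 and 1.24 CPM (1.29 ± 0.112, n = 3), a coefficient of variation of 8.70% against 18.4% from counting. The quadriceps level was at least 60.7-fold higher (adjusted p = 1.23e-05). Myf5 and Myf6, neighbours on chromosome 10, thus stood at 1.29 and 76.1 CPM in the same libraries.

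Both paired box factors were near the lower end of what these libraries can measure. Pax7, the satellite cell factor, had 18, 23 and 9 counts in quadriceps, or 0.662, 0.961 and 0.509 CPM (0.711 ± 0.230, n = 3), and 0 counts in each heart library. The quadriceps level was at least 34.1-fold higher (adjusted p = 1.04e-04). As for Myf6, the bound sets the heart at 3 counts over its 3 libraries together, and lower levels of Pax7 in heart were not detectable at this depth.

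Pax3, the factor of embryonic muscle progenitors, was counted on 2 transcripts. The row NM_008781 had 25, 38 and 17 counts in quadriceps (0.919, 1.59 and 0.961 CPM, 1.16 ± 0.375, n = 3) and 1, 2 and 0 in heart. All quadriceps libraries were above all heart libraries, with a pooled ratio of 54.6 (interval 18.0 to 270.3, adjusted p = 2.09e-05). The shorter row NM_001159520 had 25, 34 and 11 counts in quadriceps and the same heart counts, and its ratio was 47.8 (interval 15.7 to 237, adjusted p = 4.57e-05).

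Six4, a DNA-binding homeobox factor, was the member with the smallest difference between the tissues and the only one of the 9 with more than 100 counts in each heart library. Heart libraries had 137, 173 and 131 counts (3.12 ± 0.288 CPM, n = 3) and quadriceps libraries 480, 641 and 421 (22.7 ± 4.66 CPM, n = 3). The lowest quadriceps library, at 17.6 CPM, was well above the highest heart library, at 3.44 CPM. The log2 fold change was 2.86 ± 0.17 (SE), or 7.26-fold (adjusted p = 6.18e-07), so that heart held 13.7% of the quadriceps level.

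Eya1, a coactivator of Six-family proteins, reached 558, 611 and 531 counts in quadriceps on its most counted row, against 28, 18 and 11 in heart. The CPM were 25.4 ± 4.75 and 0.401 ± 0.170 (n = 3 each). The log2 fold change was 5.96 ± 0.25 (62.1-fold, adjusted p = 6.93e-08), and the log2 fold changes of the other 2 rows were 5.96 and 5.95. The heart counts of Eya1 had the same order over the libraries as the atrial genes Myl7 and Myl4, whose part in them was not tested. Without the first heart library, the log2 fold change of Eya1 was 6.33.

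Eya4, a second coactivator of the family, had the highest CPM of the 9 genes. Its heart counts were 35, 23 and 36 (0.677 ± 0.197 CPM) and its quadriceps counts 2139, 2260 and 2091 (97.1 ± 19.9 CPM, n = 3 each). The 2 groups lay far apart, with a log2 fold change of 7.17 ± 0.25 (144-fold, adjusted p = 1.74e-08), and the second row gave 7.11. Eya1 and Eya4 thus stood at 1.58% and 0.697% of their quadriceps level in heart, both lower shares than that of Six4.

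The 3 quadriceps libraries were not alike. On TMM-scaled CPM, 8 of the 9 genes were lowest in the first library, where Pax7 was the exception, and 7 were highest in the second, with Eya1 and Eya4 highest in the third. Over all tested genes, 37.4% were lowest in the first library and 35.0% highest in the second. Scaled by library totals, 5 genes were lowest in the first library and 4 in the third, against 23.1% and 31.8% of all tested genes. On that scale 7 genes were again highest in the second library, against 20.8% of all tested genes. The summed adipocyte markers were 67.1, 25.8 and 9.10 CPM in the 3 libraries in order, and their part in these levels was not tested. With the first quadriceps library left out, every member row kept its call, with log2 fold changes of 3.05 for Six4, 9.47 for Myod1 and 7.18 for Myog.

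For an order of levels between genes, values were divided by transcript length, as reads per kilobase on the per-million scale (RPKM) on the same TMM scale. The CPM given above are not divided by length, and on CPM Eya4 (97.1) stood above Myf6 (76.1). The order in quadriceps was Myf6 (61.2 ± 9.81), Eya4 (18.2 ± 3.74), Eya1 (5.87 ± 1.10), Myod1 (5.62 ± 1.79), Six4 (4.09 ± 0.838), Myog (1.39 ± 0.536), Myf5 (0.622 ± 0.0541), Pax3 (0.300 ± 0.0972) and Pax7 (0.167 ± 0.0540). The ranges of Eya1 and Myod1 overlapped, as did those of Myod1 and Six4. Within each library Myod1 (3.58, 6.90 and 6.39) was nevertheless above Six4 (3.17, 4.81 and 4.27). Eya1 (4.75, 5.91 and 6.94) and Myod1 did not keep the same order in every library. These orders within libraries were not tested. The ranges of all other neighbours in the order were apart. For Pax3 and Pax7 this held on the Pax3 row NM_008781 only. The Pax3 row NM_001159520 (0.273, 0.422 and 0.185) overlapped Pax7 (0.155, 0.225 and 0.119). The mean level of Myf6 was 367-fold that of Pax7. In heart the order began with Six4 (0.561 ± 0.0517), followed by Eya4 (0.127 ± 0.0370) and Eya1 (0.0927 ± 0.0393), whose libraries overlapped, and the other 6 genes were at a mean of 0.0098 or less.

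**Figure D2:**
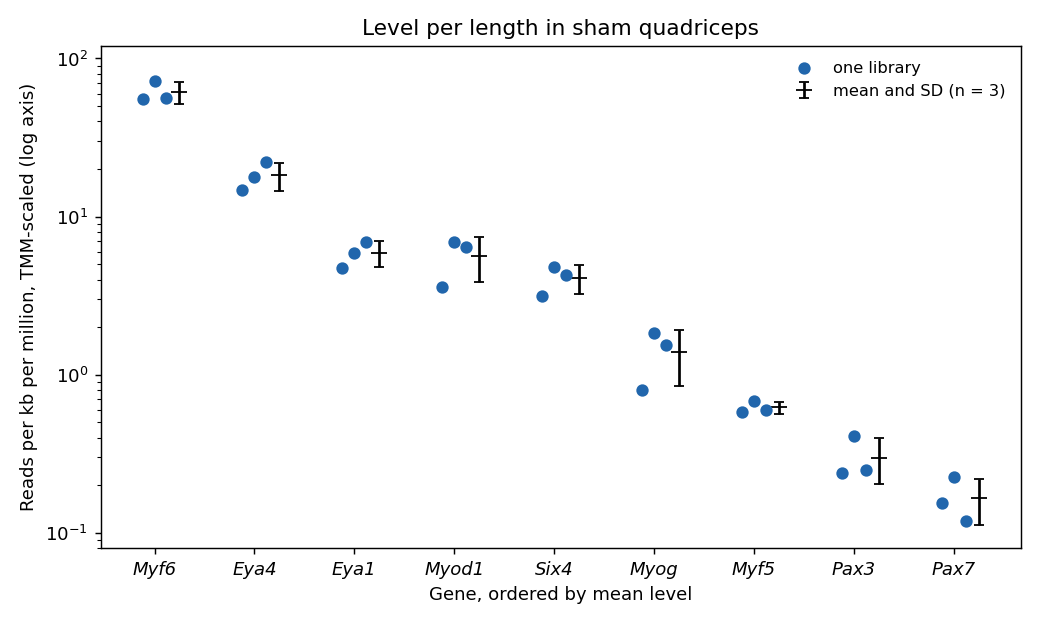
TMM-scaled RPKM (log axis) of the 9 genes in the 3 sham quadriceps libraries, ordered by mean, with the mean and SD beside the points. Myf6 stands alone at 61.2, Eya1, Myod1 and Six4 form a run with overlapping neighbours, and Pax7 is last at 0.167.

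Within the family of myogenic regulatory factors, Myf6 made up 89.0 ± 2.50% of the summed level per length in quadriceps (n = 3). Myod1 made up 8.09 ± 1.98%, Myog 1.98 ± 0.569% and Myf5 0.911 ± 0.0704%. The sum of the family was 68.9 ± 11.6 RPKM in quadriceps and 0.0169 ± 0.0175 in heart, where no shares can be read from at most 2 counts. Of the summed Pax3 and Pax7 level in quadriceps, 0.466 ± 0.149 RPKM, Pax3 made up 64.3 ± 3.54%.

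The Eya family differed between the tissues in makeup as well as in level. The summed Eya level was 26.2 ± 4.86 RPKM in quadriceps, of which Eya4 held 69.4 ± 1.34%, Eya1 22.4 ± 0.514%, Eya3 6.81 ± 1.07% and Eya2 1.36 ± 0.619%. In heart it was 3.96 ± 0.272 RPKM, of which Eya3 held 87.7 ± 1.12% and Eya2 held 6.77 ± 0.165%. Eya4 and Eya1 held 3.19 ± 0.801% and 2.33 ± 0.879% there. The shares of Eya4, Eya1, Eya3 and Eya2 did not overlap between the tissues in any library. For a single share, an exact permutation test of 3 against 3 libraries cannot go below a two-sided p of 0.1.

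**Figure D3:**
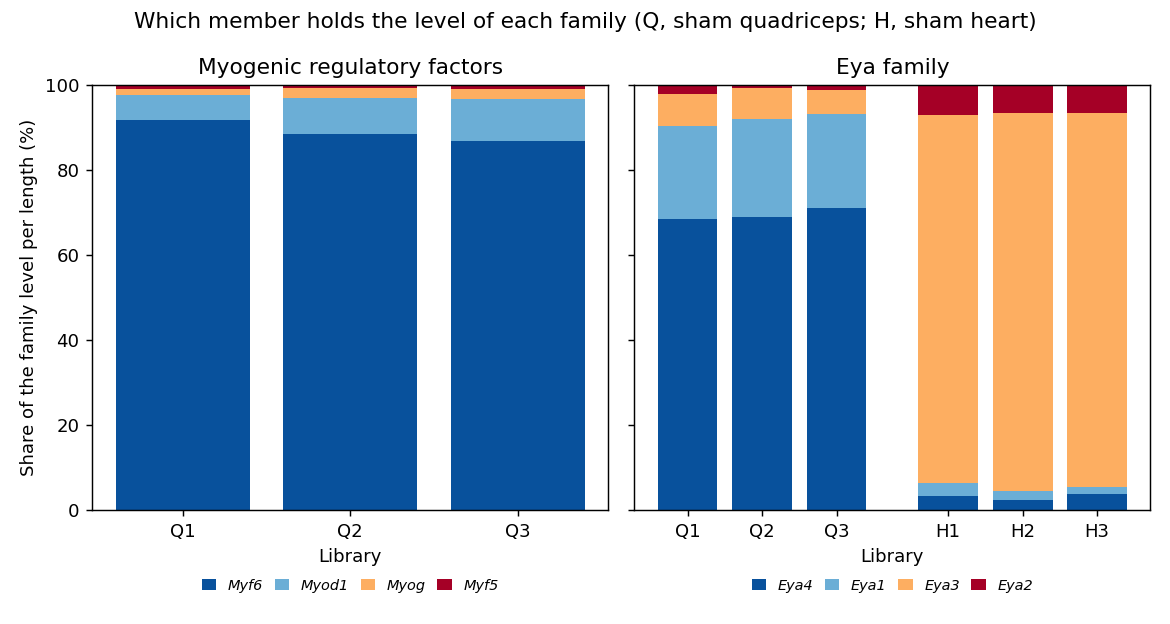
Share (%) of the summed level per length that each gene holds in its family, 1 bar per library, for the myogenic regulatory factors (quadriceps only, since heart has at most 2 counts of any of them) and the Eya family in both tissues. Myf6 and Eya4 hold most of the quadriceps bars, and Eya3 most of the heart bars.

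Of 8 other genes of the Six-, Eya- and Dach-families, 6 were tested, of which 2 were higher in quadriceps, 3 were lower and 1 did not pass the test, with a median log2 fold change of -0.22. For this list and those below, the shares over all tested genes were 32.1% called higher and 33.9% called lower. Dach2, a cofactor that can turn Six-family complexes to repression, had 0 counts in heart and 139, 53 and 95 in quadriceps, at least 196-fold higher (adjusted p = 2.32e-05). Six2 rose by 4.34 ± 0.45 on the log2 scale. In the other direction, Six5 changed by -1.93 ± 0.15, Eya3 by -0.99 ± 0.10 and Dach1 by -0.81 ± 0.15, and Eya2, at 0.36 ± 0.31, was not called (adjusted p = 0.318). The 7 other Pax genes had 1 tested member, Pax6, with a log2 fold change of 0.45 ± 0.22 that did not pass (adjusted p = 0.0951).

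The partners of the myogenic factors, Mef2 proteins and E proteins, showed no common direction. Of 7 tested, 2 were higher, 3 lower and 2 not called, with a median log2 fold change of 0.15. Mef2c, which acts with the myogenic factors on muscle promoters and also serves in heart, was higher by 3.63 ± 0.12. Mef2b was counted 3, 7 and 6 times in heart and never in quadriceps, at least 2.61-fold lower, and Tcf3, the gene of E12 and E47, was lower by a log2 fold change of -1.16 ± 0.11. Scaled by library totals, 1 of the 7 was higher and 6 lower.

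Inhibitors of the myogenic factors, such as the Id, Twist and Hey proteins, were called in both directions. Of 14 tested, 3 were higher, 5 lower and 6 not called, with a median of -0.20. Heyl, a Notch target, had a log2 fold change of -2.01 ± 0.18, Bhlhe41, a repressor that can block Myod1, of 1.77 ± 0.18, and Twist1, an embryonic inhibitor of Myod1, of 1.65 ± 0.33. With library totals the counts were 2 higher and 6 lower.

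Known targets of the myogenic factors were mostly higher in quadriceps. Of 15 tested of the 18 listed, 14 were higher, 0 lower and 1, Cdkn1a at 0.08 ± 0.13, was not called, with a median of 6.67. Tnni2, the fast troponin I, had a log2 fold change of 14.69 ± 0.28, Myl1, a myosin light chain, had 8.97 ± 0.29, and Chrne, the adult acetylcholine receptor subunit, had 0 counts in heart and 129, 195 and 116 in quadriceps, at least 300.3-fold higher. The 5 listed targets of Six-Eya complexes were all higher, with a median of 14.44 and Tnnt3, Pvalb and Atp2a1 at 16.21 ± 0.35, 16.05 ± 0.39 and 14.44 ± 0.47. Several of these targets are themselves fast fibre genes, so the lists overlap in what they measure with the check of the tissue labels. With library totals, 12 of the 15 targets of the myogenic factors were higher and 1 was lower.

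**Figure D4:**
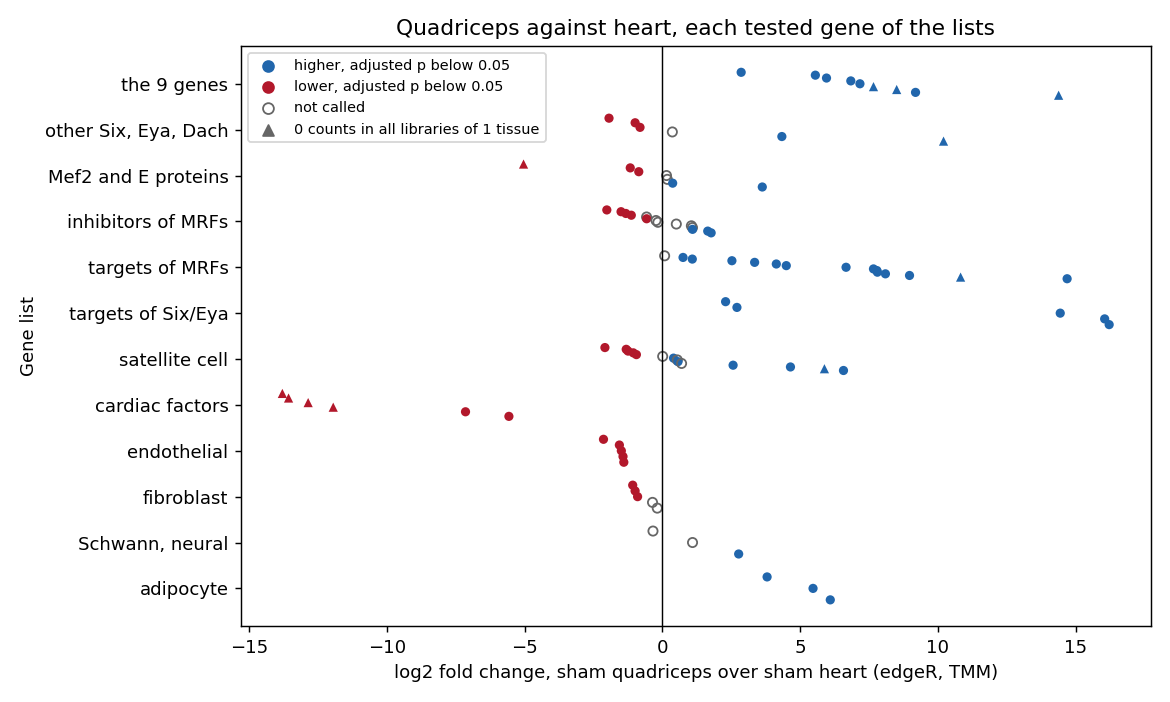
Fitted log2 fold change (sham quadriceps over sham heart) of each tested gene in 12 lists, filled where the adjusted p is below 0.05 (blue higher, red lower) and open where it is not. Triangles mark genes with 0 counts in all libraries of 1 tissue, whose fitted value depends on the prior count. The targets lie at or to the right of 0 and the cardiac factors to the left, while partners, inhibitors and satellite cell markers fall on both sides.

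Markers of the cells in which Pax7, Myf5 and Pax3 are known to be active did not share a direction. Of 14 satellite cell markers, 6 were higher in quadriceps, 5 lower and 3 not called, with a median log2 fold change of 0.47. Chodl had a log2 fold change of 6.57 ± 0.35 and Fgfr4 of 4.65 ± 0.57. Calcr had 6, 0 and 8 counts in quadriceps and 0 in heart, at least 9.55-fold higher (adjusted p = 0.0178), but its libraries overlapped at 0 and the call was lost with DESeq2 and with limma on RPKM. The other markers called higher were Met (2.57), Sdc4 (0.57) and Spry1 (0.41), and those called lower were Cd34, Itga7, Notch3, Vcam1 and Cxcr4. The part of cells other than satellite cells in the levels of these markers, in either direction, was not tested. With library totals, 4 of the 14 were higher and 7 lower.

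The cardiac factors were the reverse of the 9 genes. Of 8 listed, 6 were tested and all 6 were lower in quadriceps. Their log2 fold changes had a median of -12.39, which became -8.78 with genes at 0 in quadriceps at their bound. Gata4, with 2099, 2152 and 1832 counts in heart, Tbx20, with 2373, 2673 and 2079, and Hand2, with 1171, 1277 and 1253, each had 0 counts in all quadriceps libraries, at least 990-fold, 1160-fold and 603-fold lower.

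Other cell types also differed between the tissues, and their part in the values of the 9 genes was not tested. All 5 endothelial markers were lower in quadriceps (Kdr -2.13, Cdh5 -1.56, Tie1 -1.49), with sums of 143 to 166 CPM against 469 to 507 in heart. Of 5 fibroblast markers 3 were lower (Lum -1.07, Col1a1 -0.99, Pdgfra -0.90), of 5 leukocyte markers 3 (Csf1r -1.38, Ptprc -1.33, Adgre1 -0.79), and of 5 smooth muscle and pericyte markers 3 (Cspg4 -1.52, Pdgfrb -1.44, Acta2 -1.29), and the other 2 of each list were not called. Summed levels in quadriceps and heart were 383 to 535 and 547 to 612 CPM for fibroblasts, 11.8 to 21.9 and 27.5 to 29.4 for leukocytes, and 289 to 414 and 407 to 441 for smooth muscle. All 5 markers of each of these 3 lists were lower with library totals.

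With TMM scaling, the nerve, fat and tendon markers that passed the test were higher in quadriceps. With library totals, 1 Schwann and neural marker and 1 tendon marker were called lower. Pax3 is also known from the neural crest, which gives rise to Schwann cells and melanocytes, so their lists bear on it. Of 3 Schwann and neural markers, Mbp (2.77) was higher, and Sox10 (-0.34) and Egr2 (1.10) were not called, with sums of 8.64 to 9.38 CPM in quadriceps and 2.07 to 3.08 in heart. Of 3 tested melanocyte markers of 5, Dct (-3.99) and Mitf (-1.06) were lower and Pmel (0.98) was higher, a call that was lost with library totals and with limma on RPKM, and the pigment enzyme genes Tyr and Tyrp1 had at most 1 count in any library. All 3 tested adipocyte markers were higher (Adipoq 6.09, Cidec 5.47, Plin1 3.80). Of 3 tendon markers, Tnmd (5.92) and Mkx (3.76) were higher and Scx, at -0.03, was not called, with sums of 11.3 to 15.8 CPM in quadriceps and 2.86 to 3.995 in heart.

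Likeness to each of the 9 genes was measured as the root mean square difference of log2(RPKM + 0.1) over the 6 libraries, which joins the level and the tissue difference and is a description with no test. Myf6 was nearest to 2310065F04Rik (0.205) and Tmem233 (0.220), which like it had 0 counts in all heart libraries. Tmem233 stood at 64.6, 84.3 and 75.9 RPKM in quadriceps, which overlapped the libraries of Myf6. Myod1 was nearest to Hoxa9 (0.277), a homeobox gene of posterior body position, and to Igfn1 (0.300).

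Myog was nearest to Hsd17b14 (0.0889), with 26, 64 and 40 counts in quadriceps and 0, 1 and 1 in heart, and to Tmem132b (0.160). For Myf5 the nearest genes were Gm5091 (0.132) and Col24a1 (0.182), and for Pax7 they were Emx2os (0.113), an antisense transcript that cannot be told apart from its partner where strand was not used, and Otog (0.126). Pax3 was nearest to Zic1 (0.131), a zinc finger factor of the dorsal neural tube and somites, and to Fgfr4 (0.157), which is on the satellite cell list. At levels as low as those of Pax3, Pax7 and Myf5, the pseudocount draws genes of few counts together.

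Six4 was nearest to Cobl (0.112), with 0.532, 0.568 and 0.565 RPKM in heart and 3.77, 4.69 and 4.19 in quadriceps, and to P2rx6 (0.177). Eya1 was nearest to Adcy2 (0.264) and 9330159F19Rik (0.285). Eya4 had the most distant neighbours of the 9, Padi2 (0.463) and 2310075C17Rik (0.491), so that no gene in the table lay as close to its pattern as the nearest genes did to the other 8.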

How the data were processed

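The analysis covers 6 RNA-seq libraries (sham heart and sham quadriceps, 3 each). According to the methods and the labels, single-end reads were trimmed (Trim Galore!) and mapped to mm10 (STAR), and Rsubread assigned them to RefSeq transcripts, with versions not given in the sources used here. The deposited counts are raw. In all 6 libraries the deposited RPKM values are the counts per kilobase of transcript, scaled to the column sum. The authors' own fold changes and p-values were not used. In that table, 0 columns of a single sample were left unused.

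Rows with more than 5 counts in at least 2 of the 6 libraries were tested with edgeR 4.0.16 (R 4.3.3; quasi-likelihood test, TMM) and Benjamini-Hochberg adjustment over 24280 rows. A row is called at an adjusted p below 0.05. For genes the row with the highest mean count was used. Where all libraries of a group were at 0, a bound was set with 3 counts over the group. With 1 to 3 counts in a group, the pooled ratio is given with its exact 95% interval; both cover counting error only.

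The 9 genes and all gene lists were chosen with earlier results of these data known. Named were all rows of the 9 genes, of each list up to 3 called genes with the largest log2 fold change, and the 2 nearest genes to each of the 9. Other named genes, and the comparison among quadriceps libraries, were chosen after their values were seen. Replicates differed by more than sampling noise (chi-square per degree of freedom 7.15 or more in every pair), which leaves no candidate for a library deposited in duplicate. Some listed genes are not reported here. Alternatives were library totals, DESeq2 1.42.0, no filter, at least 10 counts in every library, limma 3.58.1 on log2(RPKM + 0.1) or log2(RPKM + 1), 1 row per gene, the replicate number as a block, and leaving out each library. Sequences are from RefSeq (GRCm38.p6), and Python 3.11.15 with pandas 2.3.3 was used outside R.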

Additional observations from a re-analysis of the deposited data

How the results depend on the processing

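Each of the 13 member rows stayed higher in quadriceps, with an adjusted p of 0.00177 or less, in every one of the 14 alternatives in which it was fitted. Requiring at least 10 counts in every library left 6 rows, of Six4, Eya1 and Eya4, all 6 called and all 6 past the study criterion, because the other genes have fewer counts in heart. Limma on log2(RPKM + 1) left 7 rows past the study criterion, and limma on log2(RPKM + 0.1) left 9. These fits differ from the reported one both in the pseudocount and in the scaling, since RPKM rests on library totals, and the cause was not tested. Six4 came to 1.25 and 1.95 on the log2 scale in these fits and to 2.10 with library totals. With 1 row per gene all 9 rows were called, and the other fits on counts moved no member call. Heart and quadriceps libraries that share a number did not share deviations from their group means (correlations of 0.055, -0.053 and 0.035). These values cannot tell whether such libraries come from the same mouse, since different tissues of an animal need not deviate together. With a replicate block, 13 rows were called. Of the list genes named, Pmel was not called with library totals (0.23) or limma, Calcr not with DESeq2 or limma, and Plin1 not with limma on log2(RPKM + 1). Among the lists, partners called higher fell from 2 to 1 without any one library other than the first quadriceps library, fibroblast markers called lower went from 3 to 5 without that one, and Schwann and neural markers called higher from 1 to 2 without the second quadriceps library, with DESeq2 or with the block. Over all rows, library totals called 3240 higher and 15203 lower, against 7828 and 8354. Depth limits Pax7, Pax3, Myf5 and Myog most, which had 9 to 65 counts in each quadriceps library.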
